A study of Mus musculus with 10 samples.

Results

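NRF2 (gene Nfe2l2) and NRF1 (Nfe2l1) are basic leucine zipper activators of the cap'n'collar family, and the BACH proteins (Bach1, Bach2) are repressors of the same family. All of them bind DNA as dimers with a small MAF protein (Maff, Mafg or Mafk), and Hmox1, Nqo1 and Gclm are standard readouts of the sites they share. These 10 genes were taken by name from the 36144 genes of the RNA table, and all 10 passed the filter on low values that left 13131 genes for testing. On the chromatin side, 11 of the 879 motifs in the deposited footprint table were taken because their name has a component that begins with NFE2 or BACH, or that is MAFF, MAFG or MAFK. The names alone decide membership, and the set was proposed with earlier results of these data known.

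The cells were primary vascular smooth muscle cells grown from the aortic media of male mice aged 8 weeks and used at passages 2 to 7. The 2 groups were wild type, for which the labels name no Cre, and Myh11-Cre-ERT2 mice with Adamts7 overexpression. Adamts7 encodes a secreted metalloproteinase, and Myh11-Cre-ERT2 is a tamoxifen-inducible recombinase under a smooth muscle promoter. The sources used here do not say whether tamoxifen was given, or the passage of each library. RNA was measured in 3 mice per group. Accessible chromatin was profiled by ATAC-seq in 2 mice per group, and the footprint table holds 1 pooled value per genotype.

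In a resting cell, NRF2 is held by KEAP1, an adaptor for the CUL3 ubiquitin ligase, and is degraded. Electrophiles and oxidants modify KEAP1, after which NRF2 accumulates, pairs with a small MAF and binds the antioxidant response element. BACH1 occupies many of the same elements and leaves them when it binds heme. Small MAF proteins have no activation domain of their own, so that their homodimers can also keep an element silent. NRF2 is controlled largely at the level of protein stability, which an RNA measurement does not read. In vascular cells the pathway is known for heme oxygenase-1 induction and for protection against oxidative injury.

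The element at which these proteins meet was looked for in RefSeq promoters (250 bases before to 50 after a start site, build GRCm38.p6, which is mm10), where 9 of the 10 genes had an entry. Hmox1 was not matched. The letters were searched on both strands for 2 patterns, the antioxidant response element core TGACNNNGC and the AP-1 site TGACTCA, which overlap where the letters read TGACTCAGC. The 5 genes of the family whose promoter held the core are printed here with 10 bases on each side and the match in capitals.
Nfe2l2: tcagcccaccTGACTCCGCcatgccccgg
Maff: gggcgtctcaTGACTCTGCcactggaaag
Mafg: ctcgccgggtTGACCGTGCtcctgcagag
Mafk: tccccagtacTGACACCGCttccgggatc
Gclm: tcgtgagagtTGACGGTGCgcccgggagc
The Nfe2l2 window lies at chr2:75704885-75704913 on the minus strand, with the match at -240 from the start site. Maff has its window at chr15:79346499-79346527 on the plus strand, at -112. For Mafg it is chr11:120633751-120633779 on the plus strand, opposite to the gene, at -222 from the start of its promoter entry. The Mafg window lies inside the gene's full span given below. Those of Mafk (chr5:139791513-139791541, at -13) and Gclm (chr3:122245413-122245441, at -134) also lie on the strand opposite to the gene, which is minus for both. For Mafg and Gclm the distance is from a start site inside the gene's span, not from the outer end of that span. All 3 small MAF genes and the NRF2 gene itself were therefore among the holders of the core.

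The core was present in 5 of the 15 promoter entries of the family (33.33%), against 12.39% of all 32851 promoters in the table. The uninterrupted AP-1 site was in 0 of the 15, against 5.202% of all promoters. No member held the overlapping form, so 2 antioxidant genes that do are added here, chosen for that reason after a search of the 69 matched genes of the antioxidant lists described further on.
Prdx1: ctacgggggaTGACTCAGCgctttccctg
Me1: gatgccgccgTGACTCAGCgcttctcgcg
Prdx1 encodes a thioredoxin-dependent peroxidase, and its window is chr4:116685456-116685484, at -133 on the strand opposite to the gene. Me1 encodes cytosolic malic enzyme, a source of NADPH, and its window is chr9:86695902-86695930, at -6 on the strand of the gene. The overlapping form was in 0.4536% of all promoters. A match of letters describes the window and says nothing of whether a factor binds there.

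RNA values are TPM, a transcript abundance scaled to a fixed total, which correct for transcript length and can be compared between genes. Each library sums to 1000000, so depth is unknown, and 13021 to 13214 genes per library reached 1 TPM. Adamts7 had a wild-type mean of 6.82 ± 1.20 TPM and an overexpression mean of 84.5 ± 12.4 TPM (SD, n = 3 each), 12.4-fold higher and in all 3 libraries, although their titles begin with an abbreviation of wild type. Genotypes were compared with limma on log2(TPM + 1), and the adjusted p is Benjamini-Hochberg over all 13131 genes. Only 2 genes had an adjusted p under 0.05 (0.0152% of those tested), Adamts7 and the predicted gene Gm36961, the latter named after its value was seen. Smooth muscle genes such as Myh11 (37.3 TPM in wild type, 53.4 in overexpression) were present, but so were endothelial genes, with Emcn at 2046 and 1153 TPM and Cdh5 at 919 and 612. The summed TPM of 18 macrophage markers was 513 to 756 in wild type and 3923, 3131 and 1222 in overexpression replicates 1 to 3. That of 12 endothelial markers was 4657 to 5168 in wild type and 3263, 2390 and 3940 in overexpression. In such bulk RNA, fewer cells of a type and less RNA per cell cannot be told apart.

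None of the 10 genes passed the test across all genes. At an unadjusted p under 0.05 there were 2, Maff lower and Nqo1 higher in overexpression, which is 20.0% of the members beside 19.5% of all tested genes (10.6% higher and 8.94% lower). Of the 10 differences 7 were negative, beside 51.7% of all tested genes, with a median of -0.13 on the log2(TPM + 1) scale, beside -0.0090. Without overexpression replicate 2, 3 of the 10 were negative. In 3 genes the libraries of the genotypes did not overlap: Nfe2l2 and Maff lower (12.9% of all tested genes did the same) and Nqo1 higher (14.3%). Over both directions that is 3 of 10, beside 27.2% of all tested genes. The counts by p and by overlap were thus near the background.

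By level, the wild-type cells held the family in a steep order. Hmox1 was the most abundant (mean 398 TPM, rank 370 of 36144 genes), followed by Nfe2l1 (328 TPM, rank 442), Gclm (205 TPM, rank 748), Nfe2l2 (195 TPM, rank 793), Nqo1 (125 TPM, rank 1291) and Maff (92.6 TPM, rank 1819). Mafk (61.2 TPM), Mafg (26.6 TPM), Bach1 (9.78 TPM) and Bach2 (1.64 TPM) followed. The libraries of Gclm and Nfe2l2 overlapped, so these neighbours were not separated beyond their spread. The other neighbours did not overlap in the 3 wild-type libraries. The repressor mRNAs were thus at the bottom of the order and the stress-inducible enzyme at its top.

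**Figure D1:**
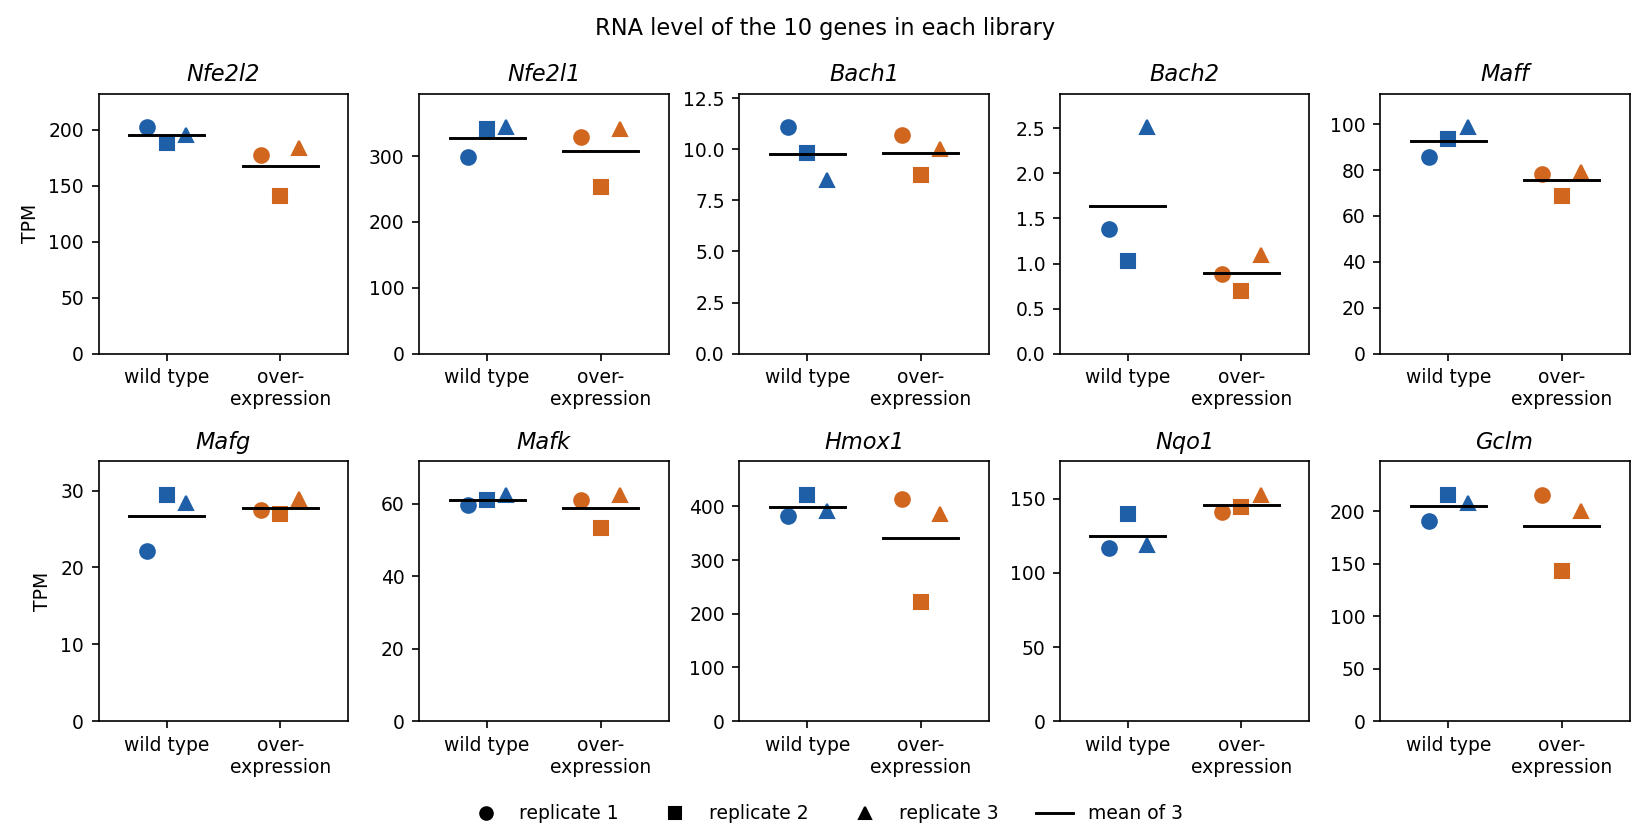
TPM of each of the 10 genes in the 3 wild-type and 3 overexpression libraries, with marker shape for the replicate number, a bar at the mean of 3 and a vertical axis from 0 for every gene. Maff and Nfe2l2 were lower and Nqo1 higher in all 3 overexpression libraries, and overexpression replicate 2 (square) lies apart and low for Hmox1 (221 TPM), Gclm (143 TPM) and Nfe2l1 (253 TPM).

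Among the activators, Nfe2l2 (chr2:75675513-75704663, ENSMUSG00000015839.6) encodes NRF2, the stress-inducible regulator. It measured 202, 188 and 195 TPM in wild-type and 177, 141 and 184 TPM in overexpression libraries. Every overexpression library lay below every wild-type library, with 188.18 and 183.82 TPM as the nearest pair. The difference was -0.23 on the log2 scale (SE 0.10, 95% interval -0.47 to 0.013, limma adjusted p = 0.275) and did not pass the test. Without overexpression replicate 2 it was -0.11.

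Nfe2l1 (chr11:96817414-96829968, ENSMUSG00000038615.17) encodes NRF1, an activator anchored in the endoplasmic reticulum that drives proteasome genes when proteasome activity falls. Levels were 299, 340 and 343 TPM in wild-type and 328, 253 and 340 TPM in overexpression libraries. They overlapped, with replicate 2 of overexpression below all others. The difference was -0.10 (SE 0.12, limma adjusted p = 0.680), and without that library it was 0.032. At the RNA level NRF1 was the more abundant of the 2 activators in all 6 libraries.

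Of the repressors, Bach1 (chr16:87698954-87733346, ENSMUSG00000025612.5) encodes the heme-sensing competitor of NRF2. It measured 11.1, 9.79 and 8.48 TPM in wild-type and 10.7, 8.71 and 9.99 TPM in overexpression libraries. The 2 groups covered the same range, with means of 9.78 ± 1.29 and 9.79 ± 0.997 TPM (SD, n = 3). The interval of the difference ran from -0.29 to 0.30 (limma adjusted p = 0.986). The ratio of Nfe2l2 to Bach1 TPM was 18.3, 19.2 and 23.0 in wild type and 16.6, 16.1 and 18.4 in overexpression, which overlap by a narrow margin.

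Bach2 (chr4:32238413-32586109, ENSMUSG00000040270.16) is best known from B and T lymphocytes, and it was the least abundant of the 10. Its values were 1.38, 1.03 and 2.51 TPM in wild-type and 0.884, 0.693 and 1.10 TPM in overexpression libraries. The 2 groups overlapped at their edges, and the third wild-type library stood above the other 5. The difference was -0.45 (SE 0.24, interval -1.02 to 0.13, limma adjusted p = 0.351). Without wild-type replicate 3 it was -0.22 (adjusted p = 0.704), and with a pseudocount of 0.1 in place of 1 it was -0.74 (adjusted p = 0.351).

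Small MAF proteins are the obligate partners of all 4 factors above. Maff (chr15:79346621-79359078, ENSMUSG00000042622.14), the member of the trio known for rapid induction by stress and cytokines, measured 85.6, 93.6 and 98.6 TPM in wild type. In overexpression it measured 78.4, 68.9 and 79.2 TPM, so that all 3 libraries lay below all wild-type libraries. The difference was -0.29 (SE 0.083, interval -0.49 to -0.10, unadjusted p = 0.00921, limma adjusted p = 0.151). It had the smallest p of the 10 genes and did not pass over all genes. Leaving out overexpression replicate 2 gave -0.23 (adjusted p = 0.232), and fitting with library quality weights gave -0.26 with an adjusted p of 0.0168, the only setting of 13 in which any of the 10 genes passed. Those weights called 20.8% of all tested genes, so that 1 of 10 is below the background of that setting. An unadjusted p under 0.05 was reached there by 37.5% of all tested genes and 3 of the 10.

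Mafg (chr11:120625117-120634955, ENSMUSG00000051510.13) and Mafk (chr5:139791536-139802653, ENSMUSG00000018143.10) lacked such a separation. Mafg measured 22.2, 29.4 and 28.3 TPM in wild-type and 27.4, 26.9 and 28.9 TPM in overexpression libraries, and only the first wild-type library stood apart, low. Mafk measured 59.8, 61.2 and 62.5 TPM in wild-type and 61.0, 53.4 and 62.4 TPM in overexpression libraries, where again replicate 2 was lowest. Their differences were 0.065 (interval -0.20 to 0.33, limma adjusted p = 0.788) and -0.056 (interval -0.23 to 0.12, adjusted p = 0.721).

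Because TPM are per length, the 3 small MAF genes can be added. Their sum was 168, 184 and 189 TPM in wild-type and 167, 149 and 170 TPM in overexpression libraries, which overlap. Maff made up 51.1%, 50.8% and 52.0% of that sum in wild type and 47.0%, 46.2% and 46.5% in overexpression. These shares did not overlap and varied little within a genotype, overexpression replicate 2 included. The share was computed after the Maff values were seen and was not tested.

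The 3 target genes did not share a direction. Nqo1 (chr8:107388225-107403205, ENSMUSG00000003849.8), which encodes a quinone reductase, measured 117, 140 and 118 TPM in wild-type and 141, 144 and 153 TPM in overexpression libraries. All overexpression libraries were higher, although the nearest pair, 139.68 and 141.07 TPM, almost touched. The difference was 0.23 (SE 0.083, interval 0.032 to 0.42, unadjusted p = 0.0279, limma adjusted p = 0.208) and did not pass over all genes. Without overexpression replicate 2 it was also 0.23.

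Hmox1 (chr8:75093618-75100593, ENSMUSG00000005413.8) encodes heme oxygenase-1, which degrades heme to biliverdin, iron and carbon monoxide and is repressed by BACH1. It measured 382, 421 and 392 TPM in wild-type and 414, 221 and 386 TPM in overexpression libraries. Replicates 1 and 3 of overexpression lay within the wild-type range, and replicate 2 was far below it. The difference was -0.28 (SE 0.22, interval -0.79 to 0.23, limma adjusted p = 0.521). Without replicate 2 the overexpression mean was 400 TPM and the difference 0.0062.

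Gclm (chr3:122245487-122267215, ENSMUSG00000028124.15) encodes the modifier subunit of glutamate-cysteine ligase, the enzyme that limits glutathione synthesis. Levels were 190, 215 and 208 TPM in wild-type and 216, 143 and 200 TPM in overexpression libraries, the same shape as for Hmox1. The difference was -0.15 (SE 0.15, interval -0.50 to 0.19, limma adjusted p = 0.600), and without replicate 2 it was 0.023. The ratio of Nqo1 to Gclm TPM was 0.613, 0.648 and 0.570 in wild type and 0.655, 1.01 and 0.763 in overexpression. In replicate 2 of overexpression, then, Nqo1 was at its genotype's level while Hmox1 and Gclm were not.

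**Figure D2:**
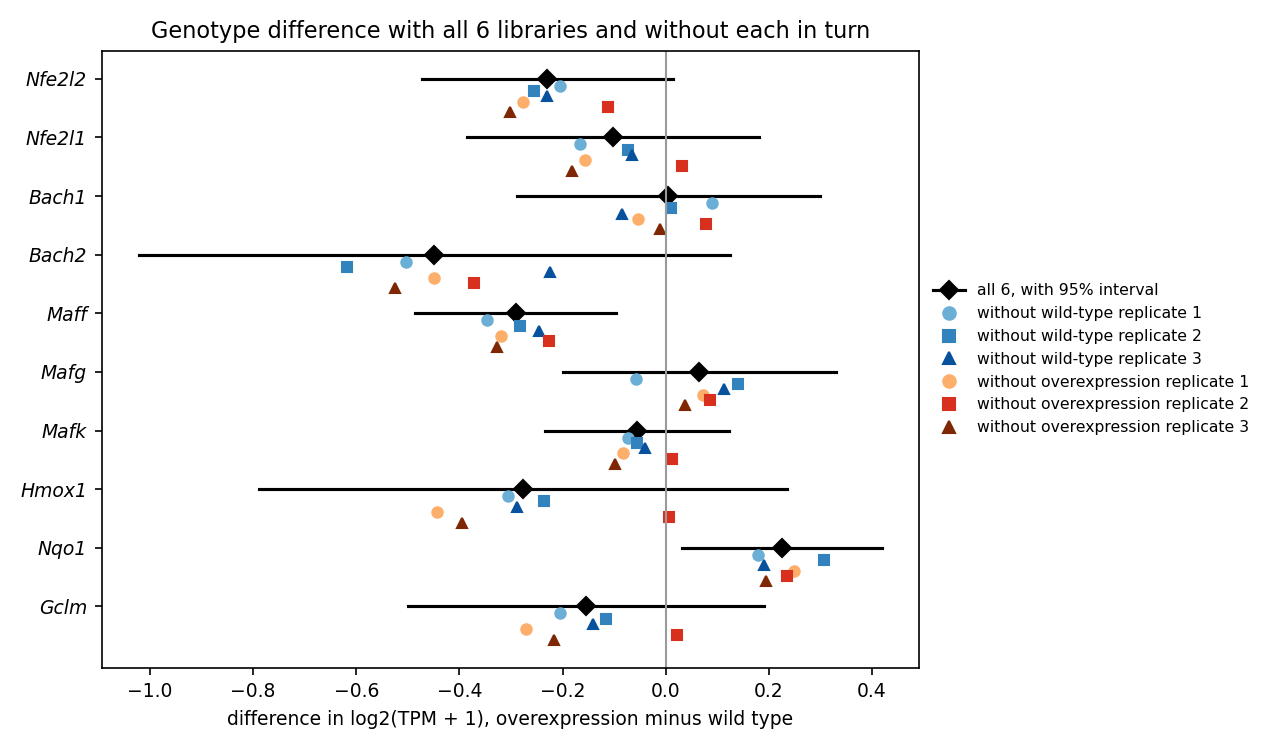
Difference in log2(TPM + 1), overexpression minus wild type, for each gene with all 6 libraries (black diamond, bar for the 95% interval) and with each library left out in turn. Without overexpression replicate 2 (red square) the values of Nfe2l1, Mafk, Hmox1 and Gclm moved to between 0.0062 and 0.032, while those of Nfe2l2, Maff and Nqo1 kept their side of 0 in every fit.

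Overexpression replicate 2 was the lowest of the 6 libraries in 7 of the 10 genes, beside 37.7% of all tested genes. Those were Nfe2l2, Nfe2l1, Bach2, Maff, Mafk, Hmox1 and Gclm. The median of the 10 genes, taken as a log2 difference from the wild-type mean, was -0.39 in that library and between -0.10 and 0.038 in the other 5. The same library had the lowest endothelial marker sum and the highest smooth muscle marker sum of the 6, at 5638 TPM beside 3911 to 4750 in the others. The latter sum rests mostly on abundant genes, with Acta2 at 2335 TPM in that library. Acta2, Tagln, Cnn1 and Lmod1 were highest of the 6 there, while Mylk (37.8 TPM) and Myocd (4.03 TPM) were lowest. These genes were named after their values were seen. The part of this difference in marker content in the values of the 10 genes was not tested.

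The upstream regulators of NRF2 and NRF1 were close to level. Of 11 genes, 10 were tested and 1 (10.0%) had an unadjusted p under 0.05, beside 19.5% of all tested genes (10.6% higher and 8.94% lower). The share was thus not above the background. That gene was Ngly1, the glycanase that processes NRF1, at 21.9 ± 2.00 TPM in wild-type against 26.0 ± 1.10 TPM in overexpression cells (SD, n = 3, difference 0.24, limma adjusted p = 0.206). Keap1 measured 51.3 and 47.2 TPM (difference -0.12, adjusted p = 0.529), with overlapping libraries. Cul3 measured 83.5 and 87.8 TPM (0.070, adjusted p = 0.591). Sqstm1, which encodes the autophagy receptor p62 that can sequester KEAP1, was at 443 and 445 TPM (0.0040, adjusted p = 0.982). The differences of Rbx1 (a ligase subunit, -0.071), Fbxo22 (a ubiquitin ligase adaptor for BACH1, 0.093), Btrc (0.0097) and Gsk3b (-0.0047), which act in KEAP1-independent turnover of NRF2, and Ddi2 (the protease that cleaves NRF1, -0.0007) were smaller than 0.1. Of the related factors, Nfe2l3 was near 1 TPM (-0.078), and Nfe2, at 1.17 and 0.596 TPM, was below the filter.

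The wider set of antioxidant genes was taken as 5 lists. In these lists (glutathione, thioredoxin and peroxide, NADPH supply, detoxification, heme and iron) 80 of 81 genes were tested and 0 passed over all genes by limma. At an unadjusted p under 0.05, 23 were higher (28.75%, beside 10.6% of all tested genes) and 2 lower (2.5%, beside 8.94%) in overexpression. That is 31.25% in all, beside 19.5% of all tested genes. The median difference was 0.067, with 46 positive and 34 negative (57.5% positive, beside 48.3% of all tested genes). In 24 genes all overexpression libraries were higher and in 2 all were lower, beside 14.3% and 12.9% of all tested genes.

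In the glutathione list, 4 of 24 genes (16.7%, beside 10.6% of all tested genes) were higher at an unadjusted p under 0.05 and 0 lower, with a median of 0.039. Over both directions that share is below the 19.5% of all tested genes. They included Gpx8, a peroxidase of the endoplasmic reticulum, at 160 ± 1.31 TPM in wild-type against 203 ± 20.2 TPM in overexpression cells (SD, n = 3, difference 0.33, limma adjusted p = 0.131). Ggt5, of the gamma-glutamyltransferase family, was low throughout, at 0.450 and 2.23 TPM (1.10, adjusted p = 0.148). The abundant peroxidases Gpx1 (798 and 754 TPM, adjusted p = 0.483) and Gpx4 (624 and 592 TPM, adjusted p = 0.603) had overlapping libraries. Gclc, the catalytic partner of Gclm, measured 32.0 and 32.9 TPM (0.039, adjusted p = 0.843), and the cystine importer Slc7a11 4.38 and 4.08 TPM (-0.092, adjusted p = 0.804). Both are textbook NRF2 targets and were named after their values were seen.

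In the thioredoxin and peroxide list, 5 of 18 genes were higher (27.8%) and 2 lower (11.1%) at an unadjusted p under 0.05, beside 10.6% and 8.94% of all tested genes, with a median of 0.076. Prdx1, whose promoter window is printed above, measured 549, 601 and 592 TPM in wild-type and 895, 829 and 700 TPM in overexpression libraries. The groups lay far apart relative to their spread (difference 0.47, SE 0.097), yet the limma adjusted p was 0.131. Its reductant Txn1 measured 205 ± 13.6 and 241 ± 7.04 TPM (0.23, adjusted p = 0.151), and superoxide dismutase Sod1 796 and 855 TPM (0.11, adjusted p = 0.523). Srxn1, the sulfiredoxin that repairs peroxiredoxins, was on the other side, at 54.1 ± 2.23 and 47.5 ± 3.51 TPM (-0.18, adjusted p = 0.246) with all overexpression libraries lower. Txnrd1, the reductase for Txn1, measured 160 and 158 TPM (-0.017, adjusted p = 0.933). Srxn1 and Txnrd1 were named after their values were seen.

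NADPH supply was the list with the highest median, 0.21, and 5 of its 8 genes were higher at an unadjusted p under 0.05 (62.5%, beside 10.6% of all tested genes) and 0 lower. Mthfd2, of mitochondrial folate metabolism, measured 19.8 ± 0.821 and 27.5 ± 3.56 TPM (0.45, limma adjusted p = 0.131). Idh1, cytosolic isocitrate dehydrogenase, measured 91.3 ± 6.67 and 119.8 ± 12.6 TPM (0.39, adjusted p = 0.131). Me1, the second gene with the overlapping promoter form, measured 91.1, 82.2 and 78.5 TPM in wild-type and 100.8, 97.7 and 99.0 TPM in overexpression libraries (0.24, adjusted p = 0.151). Taldo1 (389.7 and 361 TPM, adjusted p = 0.631) and Tkt (304 and 321 TPM, adjusted p = 0.450), enzymes of the pentose phosphate pathway and the most abundant of the list, did not reach an unadjusted p under 0.05.

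Detoxification enzymes had a median of 0.0023, with 4 of 18 tested genes higher at an unadjusted p under 0.05 (22.2%, beside 10.6% of all tested genes) and 0 lower. Ptgr1, a prostaglandin and alkenal reductase, measured 28.1 ± 0.278 and 33.4 ± 1.46 TPM (0.24, limma adjusted p = 0.148). Ugt1a7c measured 5.64 and 11.1 TPM (0.82, adjusted p = 0.151); Ugt1a genes share exons, so reads are divided among copies by estimate and its value is uncertain. The abundant enzymes Esd (757 and 689 TPM, adjusted p = 0.512) and Ephx1 (724 and 675 TPM, adjusted p = 0.513) overlapped between genotypes.

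Heme and iron genes, which act beside Hmox1, had a median of 0.20, with 5 of 12 genes higher at an unadjusted p under 0.05 (41.7%, beside 10.6% of all tested genes) and 0 lower. Slc40a1, the iron exporter ferroportin, measured 13.2, 18.9 and 14.5 TPM in wild-type and 62.0, 36.1 and 24.2 TPM in overexpression libraries (1.25, limma adjusted p = 0.131). Blvra, biliverdin reductase, measured 25.2 ± 0.544 and 32.7 ± 3.13 TPM (0.36, adjusted p = 0.131). Ferritin heavy chain Fth1 was at 4073 ± 209 and 5330 ± 969 TPM (0.37, adjusted p = 0.203) and light chain Ftl1 at 3329 ± 506 and 4523 ± 747 TPM (0.44, adjusted p = 0.199). Slc40a1, Fth1 and Ftl1 were highest in overexpression replicate 1 and lowest of the 3 in replicate 3, as was the macrophage marker sum. The others of the 5 were also highest in replicate 1 but lowest of the 3 in replicate 2. These were Blvra (36.0, 29.8 and 32.4 TPM) and Flvcr1 (8.05, 7.51 and 7.86 TPM), the latter named after its values were seen. All 17 tested macrophage markers were higher in every overexpression library, beside 14.3% of all tested genes. Their median difference was 1.66, and Lyz2 measured 246 and 1348 TPM (adjusted p = 0.128). Cd163 was the one marker below the filter. The part of macrophage RNA in the antioxidant values was not tested.

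**Figure D3:**
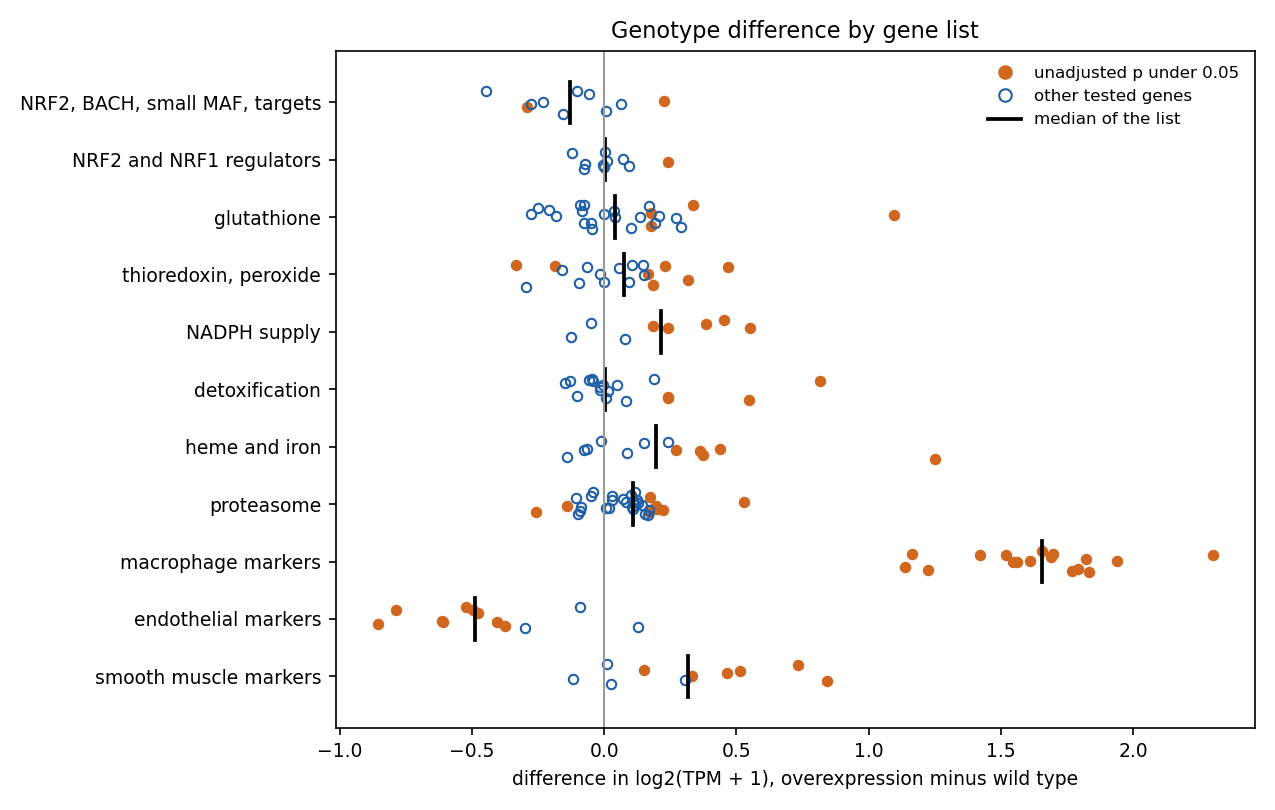
Difference in log2(TPM + 1), overexpression minus wild type, of each tested gene by list, with filled points for an unadjusted p under 0.05, open points for the rest and a bar at the list's median. The 10 family genes spread around a median of -0.13, NADPH supply and heme and iron lie to the right with medians of 0.21 and 0.20, and the macrophage markers lie farthest right with a median of 1.66.

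The footprint table gives, for each motif, a mean score over the sites searched in each genotype, where a higher score stands for more accessible sites with a deeper local dip in transposase cuts, and the number of sites called bound. All 11 motifs of the family scored higher in overexpression, beside 56.4% of all 879 motifs. A log2 ratio of mean scores of at least 0.1 in that direction was reached by 10 of the 11, beside 36.3% of all motifs. The median log2 ratio was 0.17 over the 11 motifs and 0.033 over all motifs. In the motif paragraphs below, a ratio is this log2 ratio of mean scores, overexpression over wild type. There is 1 pooled value per genotype, so none of these differences can be set against the spread between mice. The searched sites of motifs of one family largely share letters, so the 11 motifs are not 11 independent values.

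The family divided by the cluster in which the authors' deposited table places each motif. In the cluster named for the AP-1 factor FOSL1 were BACH1, NFE2 and 1 of the 2 BACH2 motifs. The BACH1 motif had a mean score of 0.249 in wild type and 0.314 in overexpression, a log2 ratio of 0.33 and rank 25 of 879. Of its 41592 sites, 14.4% were called bound in wild type (95% Wilson interval 14.1% to 14.8%) and 19.7% in overexpression (19.3% to 20.1%), 2206 more sites. NFE2 followed with a ratio of 0.31 (rank 46, 12.2% and 16.7% bound) and BACH2 with 0.30 (rank 48, 15.0% and 20.2% bound). These 3 motifs are also the only ones of the 11 that the authors' deposited table marks as changed by its own rule for display, beside 10.9% of all motifs.

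Motifs that read the longer element with its MAF half-site formed the cluster named for MAFG::NFE2L1, where 6 motifs had ratios of 0.10 to 0.19. The dimer motif MAFG::NFE2L1 scored 0.238 and 0.272 (ratio 0.19, rank 157), with 12.1% and 15.3% of 41317 sites bound. MAF::NFE2 had a ratio of 0.18 and MAFK of 0.17. The Nfe2l2 motif, that of NRF2 itself, scored 0.237 and 0.263 (ratio 0.15, rank 231). Its bound share was 11.7% in wild type (interval 11.4% to 12.0%) and 14.3% in overexpression (13.9% to 14.6%) of 38257 sites. Bach1::Mafk had a ratio of 0.12 and Mafg of 0.10.

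The other 2 motifs stood in clusters apart. The second BACH2 motif, in a cluster of its own with only 9141 sites, had a ratio of 0.12 and bound shares of 9.11% (interval 8.54% to 9.72%) and 10.3% (9.68% to 10.9%), which overlap at their edges. MAFF had the smallest ratio of the 11, 0.070 (rank 376), with 7.39% (7.07% to 7.73%) and 7.93% (7.60% to 8.28%) of 24474 sites bound, also overlapping. These intervals cover counting error over sites only. The authors' deposited table gives p-values from 5.4212e-211 to 2.3912e-142 for the 10 motifs other than this BACH2 and 7.9791e-134 for it. It gives a p under 0.05 for 876 of all 879 motifs, so that these values do not set the family apart.

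AP-1 motifs served as the nearest comparison, since TGACTCA is known to lie inside the BACH and NFE2 motifs. The 18 AP-1 motifs of the FOSL1 cluster had ratios of 0.29 to 0.36 with a median of 0.34, and the 3 family motifs of that cluster, at 0.30 to 0.33, lay within that range. The 13 AP-1 motifs of other clusters had ratios of 0.065 to 0.13 with a median of 0.094. Whether these 13 hold TGACTCA was not read here. The 6 motifs of the MAFG::NFE2L1 cluster, at 0.10 to 0.19, lay between these 2 sets and overlapped the lower one. With 1 value per genotype the order is a description, and binding by AP-1 and by cap'n'collar factors at shared letters cannot be told apart.

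**Figure D4:**
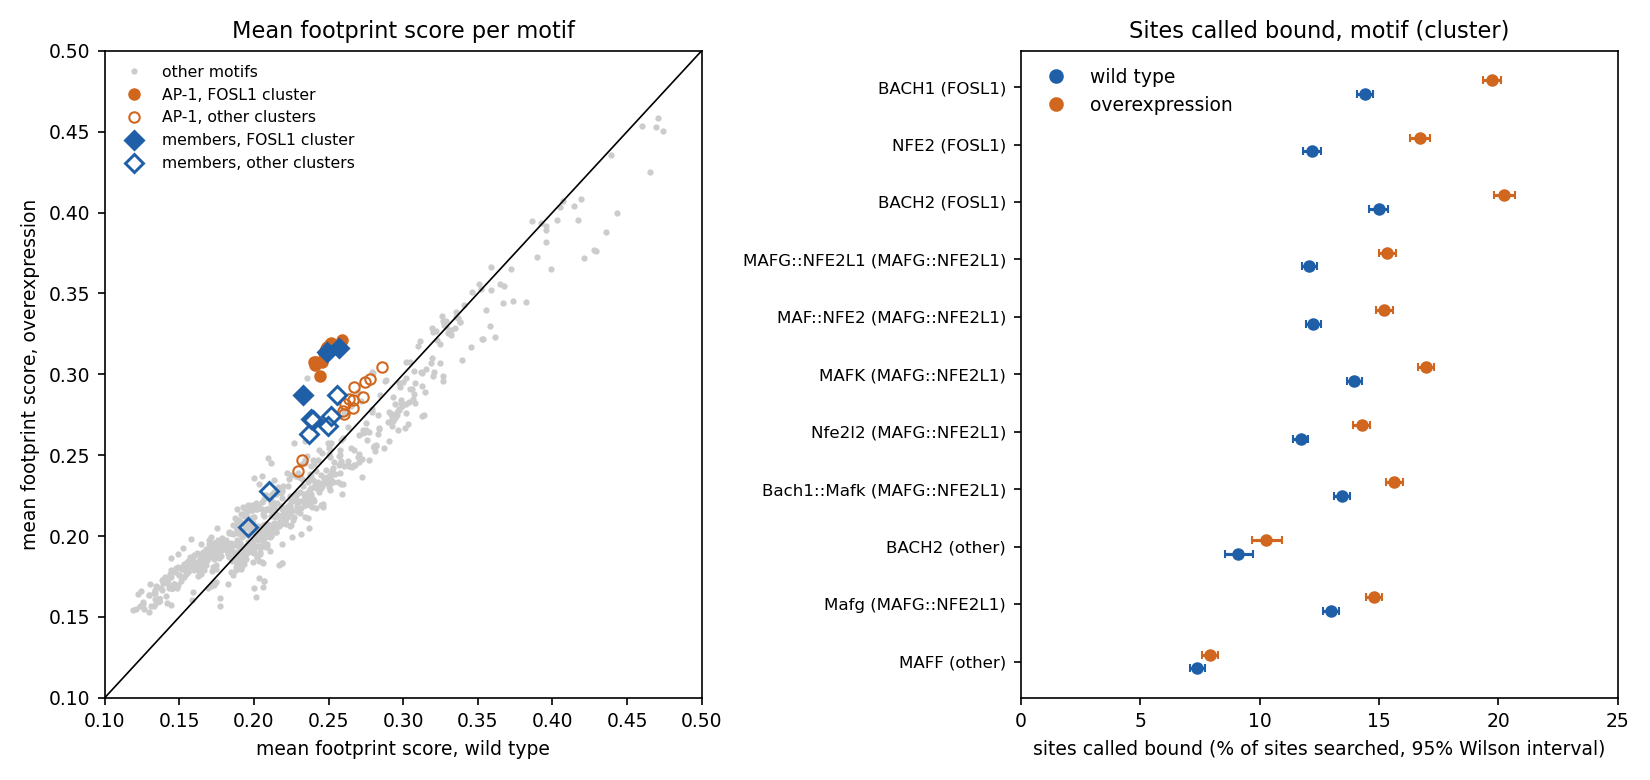
Left, mean footprint score of each of the 879 motifs in overexpression against wild type, with the line of equal scores; right, share of sites called bound per genotype for the 11 family motifs, with 95% Wilson intervals and the motif's cluster, or other, in brackets. The family motifs of the FOSL1 cluster lie among the AP-1 motifs of that cluster (log2 ratios of 0.29 to 0.36). Family motifs of other clusters lie nearer the line, and over all motifs those with the lowest wild-type scores lie mostly above the line. The bound shares of BACH1 were 14.4% and 19.7%.

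The RNA of the factors and the footprints of the motifs named for them can be set side by side. Every motif score was higher in overexpression, while the RNA differences of the 7 factors among the 10 genes ran from -0.45 for Bach2 to 0.065 for Mafg. Some motifs also name NFE2 or MAF, which are outside these 7. Nfe2 RNA was below the filter. Maf measured 5.80 TPM in wild type and 13.2 in overexpression (difference 0.98, limma adjusted p = 0.154). All its overexpression libraries were higher, beside 14.3% of all tested genes. Mafg RNA and its motif score (log2 ratio 0.10) were both on the higher side. The Mafg libraries overlapped, however, and its RNA difference changed sign in other fits. None of the 7 RNA differences passed over all genes in the main fit. Bach1 RNA was level at 9.78 and 9.79 TPM while the BACH1 motif had the highest log2 ratio of the family, 0.33. Maff RNA was lower in all 3 overexpression libraries and the MAFF motif score was higher by the smallest log2 ratio, 0.070. Nfe2l2 RNA was lower at -0.23 (-0.11 without overexpression replicate 2) and the Nfe2l2 motif score higher by a log2 ratio of 0.15. The RNA and chromatin libraries are separate samples, and the footprint values have no replicate.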

How the data were processed

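Gene values are TPM that the authors deposited for 6 RNA libraries, which the labels call kallisto output; the submitters' processing notes name build mm10. The sources used here give neither the kallisto version nor its annotation. The footprint score, counts of sites called bound and p-value per motif come from 1 table that the authors deposited with the columns of TOBIAS BINDetect (per the file headers), with the 2 mice of a genotype pooled; it was described and not tested. Log2 ratio values of mean scores were computed here from the deposited scores, and the authors' p-value is quoted as theirs.

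RNA was tested in R 4.3.3 by limma 3.58.1 (two-sided, lmFit and trended eBayes) on log2(TPM + 1), which understates changes of low genes, for the genes that averaged 1 TPM or more over the 6 libraries. Benjamini-Hochberg adjustment ran over all 13131 genes, with a threshold of 0.05. Labels give separate mice as replicates. On simulated data of 13131 genes the test called 79 of 100 genes changed by a log2 of 1, 99 of 100 changed by 2 and 7 of 12931 unchanged genes. The simulated noise was independent between genes and libraries, and changed genes had a mean log2(TPM + 1) over 2. These rates need not hold where a library deviates in many genes at once, as overexpression replicate 2 did here, or for low genes. They say nothing of changes as small as those of the 10 genes, -0.45 to 0.23. Of the 17 tested macrophage markers, with differences of 1.14 to 2.30, 0 passed over all genes.

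All 10 genes and 11 motifs are named. From the lists, the rule names all regulators, and elsewhere the 2 tested genes with the smallest p and the 2 with the highest mean TPM. Some genes and motifs of the rule are not reported here. Members, lists and rule were chosen with earlier results of these data known. Promoter and gene positions are from RefSeq (GRCm38.p6). Alternatives were the pseudocount, the filter, scaling, library weights, a replicate block and leaving out each library. Python 3.11.15 was used for the rest.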

Additional observations from a re-analysis of the deposited data

How the results depend on the processing

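The number of genes called by limma was 2 and became 1 with a filter at a mean of 5 TPM, 1 with a replicate block and 2728 with library quality weights; leaving out each library gave 1 to 828, the latter without overexpression replicate 3. Of the 10 family genes 0 were called in any setting except library quality weights, which called 1, Maff, beside 20.8% of all tested genes. At an unadjusted p under 0.05 there were 2 (Maff and Nqo1), beside 19.5% of all tested genes. Leaving out a library gave 1 to 2, beside 12.8% to 25.7% of all tested genes. Only Maff was left without wild-type replicate 1 (13.8% of all tested genes) or 3 (12.8%). Without overexpression replicate 3 (25.7%) the 2 were Nfe2l2 and Maff. Nfe2l2 was added, giving 3, with quantile normalisation (21.1% of all tested genes), median-of-ratios scaling (20.8%), library weights (37.5%) and the block (19.3%). Bach2 fell below the filter at 5 TPM. Maff, Nfe2l2 and Bach2 stayed negative and Nqo1 positive in every setting run, with adjusted p of 0.0168 to 0.372 for Maff, 0.128 to 0.475 for Nfe2l2, 0.158 to 0.704 for Bach2 and 0.127 to 0.452 for Nqo1. Bach2 ran from -0.74 (pseudocount of 0.1) to -0.22 (without wild-type replicate 3), and Nfe2l2 was -0.14 with library weights and -0.11 without overexpression replicate 2. Differences near 0 changed sign: Bach1 to -0.030 with quantile normalisation, Mafg to -0.00037 and Gclm to 0.019 with library weights. Leaving out each library gave -0.084 to 0.090 for Bach1, -0.057 to 0.14 for Mafg, -0.098 to 0.012 for Mafk, -0.44 to 0.0062 for Hmox1, -0.18 to 0.032 for Nfe2l1 and -0.27 to 0.023 for Gclm; for the last 4 the positive value is that without overexpression replicate 2. The cause was not tested. Same-numbered libraries of the 2 genotypes had deviations correlated at -0.022, 0.058 and 0.018, so the numbers were not taken as a pairing; with the replicate block Maff had an adjusted p of 0.171. The median log2 ratio of the 11 motifs, 0.17, became 0.28 on the authors' deposited change and 0.29 on the share of sites called bound, which are other scales, and 0.14 with 1 motif per cluster; 0 motifs were lower in each. At a log2 ratio of 0.2 in place of 0.1, 3 of the 11 motifs passed in place of 10, those of the FOSL1 cluster, beside 17.5% of all motifs. TPM keep no depth, so no limit from read number could be given.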

Other observations

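Proteasome genes are the classic targets of NRF1. Of 33 genes, 7 were higher (21.2%, beside 10.6% of all tested genes) and 2 lower (6.06%, beside 8.94%) at an unadjusted p under 0.05. Differences were positive in 25 genes and negative in 8 (75.8% positive, beside 48.3%), with a median of 0.11. All overexpression libraries were higher in 14 genes and lower in 3, beside 14.3% and 12.9% of all tested genes. Pomp, the proteasome maturation factor, measured 166, 183 and 163 TPM in wild type and 247, 265 and 228 TPM in overexpression (0.53, limma adjusted p = 0.128). The catalytic subunit gene Psmb6 measured 224 ± 10.3 and 261 ± 7.93 TPM (SD, n = 3, 0.22, adjusted p = 0.145). The most abundant base and lid genes, Psmd8 (369 and 344 TPM, adjusted p = 0.405) and Psmc3 (332 and 313 TPM, adjusted p = 0.517), had lower means. Nfe2l1 itself had overlapping libraries and a difference of -0.10 (limma adjusted p = 0.680), which was 0.032 without overexpression replicate 2.

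The genes closest in pattern to Nfe2l2 over the 6 libraries, by Pearson's r of log2(TPM + 1), were Vac14 (r = 0.996), Samd12 (0.995) and Flt4 (0.994), the last a receptor of lymphatic endothelium at 29.9, 25.8 and 28.0 TPM in wild type and 20.7, 12.3 and 22.6 TPM in overexpression. For Hmox1 they were Cchcr1 (0.995), Taldo1 (0.994) and Hat1 (0.993), and for Gclm they were Exosc5 (0.995), Tlk1 (0.994) and Man1c1 (0.994). All 9 were lowest in overexpression replicate 2, so that 1 library weighs heavily in each coefficient. They are the highest among all tested genes averaging 10 TPM or more and describe these 6 libraries only.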
